A study of Mus musculus with 6 samples.

Results

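The 10 genes described here encode enzymes of glycolysis that are abundant in skeletal muscle: Gpi1, Pfkm, Aldoa, Tpi1, Gapdh, Pgk1, Pgam2, Eno3, Pkm and Ldha. They were taken by gene symbol from the protein-coding rows of the deposited expression table. They fill 11 of its 26018 rows, because Aldoa stands on 2 rows. Bulk RNA sequencing measured expression in whole uterus of 6-week-old female mice matched for body weight, without treatment, with 1 library per animal. The conditional knockout group (cKO) held 3 Tcf21d/d animals, and the control group held 3 Tcf21f/f animals that carry the floxed gene. Tcf21 encodes a transcription factor of mesenchymal cells. The Cre driver, the deleted part of the gene and the strain were not given in the sources used here. The question asked of each enzyme was whether its level differed between the groups, and whether it kept its proportion to the skeletal muscle transcripts in the same library.

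Glycolysis splits glucose into pyruvate in a chain of enzyme steps and yields ATP without oxygen. Fast skeletal muscle fibres depend on it during bursts of work, and they use muscle forms of several enzymes, among them PFKM, PGAM2 and ENO3, where most other tissues use forms encoded by other genes. Lactate dehydrogenase A then turns pyruvate into lactate, which renews the cofactor that the GAPDH step consumes. The uterine wall itself is built of smooth muscle, stroma and epithelium. Skeletal muscle fibres are not a regular part of it.

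The libraries held 14584450 to 16579573 reads on genes. Tcf21, the targeted gene, had normalised counts of 26.0, 0 and 0 in cKO libraries 1 to 3, against 341.4, 151.9 and 144.1 in control libraries 1 to 3. A count of 0 allows up to 2.93 and 3.31 normalised counts in cKO libraries 2 and 3. It had a log2 fold change of -6.03 ± 1.25 (SE, 3 animals each), with a limma Benjamini-Hochberg adjusted p of 0.0765. The label of the tissue was set against marker lists. A list of 10 smooth muscle genes took 0.0983 to 0.120% of reads in cKO libraries and 0.887 to 1.26% in control libraries. Limma called 9 of its 10 genes lower, where it called 1.16% of all genes in either direction. A list of 10 uterine stroma and epithelium genes took 0.00762 to 0.0151% of reads in cKO libraries and 0.0134 to 0.0648% in control libraries. These ranges overlapped, and none of the 7 genes tested was called. Control library 1 stood apart, with 1.41% of its reads on 9 liver genes against at most 0.0101% in any other library. The same library had 23.8% of its reads on mitochondrially encoded genes, against 8.10 to 13.7% elsewhere.

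Skeletal muscle content was measured as the share of reads on 13 genes of the fast-fibre contractile apparatus. It was 6.16, 8.95 and 8.63% in cKO libraries 1 to 3, against 3.03, 5.79 and 4.35% in control libraries 1 to 3. Skeletal muscle transcripts thus took more reads than the smooth muscle list in all 6 libraries. The means were 7.92 ± 1.53% in cKO and 4.39 ± 1.38% in control libraries (SD, n = 3 each), and the 2 groups did not overlap. An exact two-sided permutation test gave p = 0.1, which is the smallest value that 3 libraries against 3 can give. Acta1, the skeletal alpha-actin gene, supplied 28.0% of the content, with normalised counts of 256158, 389041 and 401685 in cKO and 149824, 239760 and 170313 in control libraries. In bulk tissue, fewer fibres and less RNA per fibre cannot be told apart. The content list includes Tnnc2, the fast troponin C gene, which had at most 8.90 normalised counts in any library while each of the other 12 genes had at least 6148. A separate list of 7 calcium-handling genes of skeletal muscle took 1.08 ± 0.131% of reads in cKO and 0.583 ± 0.242% in control libraries (SD, n = 3 each, exact two-sided permutation p = 0.1).

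The enzymes as a group were higher on average in the cKO uteri, and nearly in step with skeletal muscle content. Together they took 2.63, 3.47 and 3.19% of reads in cKO libraries 1 to 3, against 1.16, 2.35 and 1.82% in control libraries 1 to 3. The 3 cKO libraries lay above the 3 control libraries, and the libraries ranked in the same order as by muscle content within each group. Per unit of muscle content, the summed enzymes stood at 0.427, 0.387 and 0.370 in cKO, against 0.382, 0.406 and 0.418 in control libraries. These ratios overlapped between the groups, and Aldoa was the largest part of each sum. Without Gapdh they were 0.397, 0.362 and 0.346 in cKO, against 0.374, 0.405 and 0.410 in control libraries, and overlapped too. All 10 genes had a higher mean log2 level in cKO, with a median log2 fold change of 0.65, where the median over all 16314 genes tested was 0.002.

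Of the 11 rows, limma called 1 higher and none lower at a Benjamini-Hochberg adjusted p under 0.05. Over all genes tested it called 1.16% in either direction and 0.276% as higher in cKO. The called gene was Pgam2. In 5 of the 10 genes, namely Gpi1, Aldoa, Gapdh, Pgam2 and Eno3, all 3 cKO libraries lay above all 3 control libraries, as they did in 9.04% of all genes tested. DESeq2 on the reads recovered from the deposited values called 4 of the 11 rows, Aldoa, Gapdh, Pgam2 and Eno3, where it called 5.52% of all genes, and edgeR called none. An unadjusted limma p under 0.05 was found for 5 of the 11 rows and for 13.7% of all genes. The authors' deposited table lists the same 4 genes with an adjusted p under 0.05, from 6.29e-06 for Pgam2 to 0.00821 for Eno3. Its log2 fold changes match those of DESeq2 here, such as 1.0949 against 1.095 for Pgam2 and 3.2780 against 3.278 for Gapdh. Both rest on the same counts, so the match is not separate support.

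**Figure D1:**
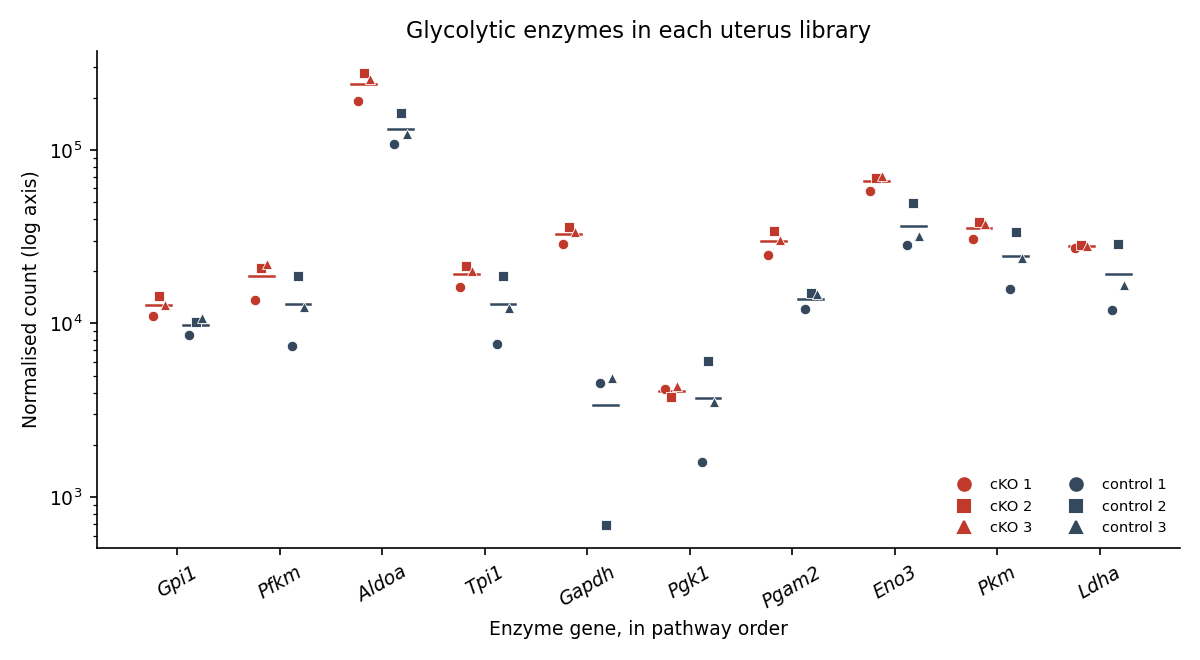
Normalised count of each enzyme gene (log axis) in the 3 cKO libraries (red, left) and the 3 control libraries (dark, right), with the group means as lines and genes in pathway order. The groups did not overlap for Gpi1, Aldoa, Gapdh, Pgam2 and Eno3, and Gapdh in control library 2 was at 685.7.

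Pgam2 was the called gene, and Eno3 is the muscle form of the next step, so their promoters are shown. The E-box CANNTG, which muscle basic helix-loop-helix factors bind, was found 5 times in the promoter window of Pgam2 and 2 times in that of Eno3, and is in capitals. Each window runs from 250 bases before to 50 bases after the RefSeq transcript start (GRCm38.p6). That of Pgam2 is chr11:5803747-5804046 on the minus strand, and that of Eno3 is chr11:70656926-70657225 on the plus strand.

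Pgam2: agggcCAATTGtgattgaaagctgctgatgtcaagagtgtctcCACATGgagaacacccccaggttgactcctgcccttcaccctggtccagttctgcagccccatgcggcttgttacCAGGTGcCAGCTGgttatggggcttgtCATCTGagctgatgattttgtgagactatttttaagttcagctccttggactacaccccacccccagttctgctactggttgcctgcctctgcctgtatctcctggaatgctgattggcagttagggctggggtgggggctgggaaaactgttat

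Eno3: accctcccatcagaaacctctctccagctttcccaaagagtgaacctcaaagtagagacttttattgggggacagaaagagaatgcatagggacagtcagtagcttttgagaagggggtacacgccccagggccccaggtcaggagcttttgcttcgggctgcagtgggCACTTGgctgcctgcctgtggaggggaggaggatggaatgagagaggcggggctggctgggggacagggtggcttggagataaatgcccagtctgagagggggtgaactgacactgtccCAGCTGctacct

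The CANNTG letters are common, and 72.3% of all 32851 promoter windows hold them on either strand (the motif reads the same on both). Among the 17 windows of the 10 enzyme genes, 14 hold it. The narrower CAGCTG, a subset of CANNTG, was in 5 of the 17 windows and in 16.3% of all windows, and both Pgam2 and Eno3 have it. The core ACGTG, which the hypoxia-inducible factors bind and which overlaps CANNTG where it reads CACGTG, was searched on both strands. It was in 8 of the 17 windows and in 19.6% of all windows. Aldoa, Gapdh, Ldha, Pfkm, Pgk1 and Pkm each have such a window, though not all windows of Aldoa, Ldha, Pfkm and Pkm hold it. GCGTG, searched likewise, was in 6 of the 17 windows and in 32.4% of all. Several windows of a gene overlap, so the windows are not independent. A match is only a description of these letters.

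The first steps described are those that turn glucose 6-phosphate into triose phosphates. Gpi1, glucose-6-phosphate isomerase (chromosome 7, 34201330 to 34230336, GRCm38), had normalised counts of 11095, 14374 and 12766 in cKO libraries, against 8548, 10228 and 10718 in control libraries. All 3 cKO libraries were above all 3 controls, by a narrow margin between cKO library 1 and control library 3. Gpi1 did not pass, with a fitted log2 fold change of 0.37 ± 0.19 (SE, 3 animals in each group; limma adjusted p = 0.427). Exons of Gm26762 on the opposite strand cover 11.5% of Gpi1, and no source says whether strand was used in counting.

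Pfkm, the muscle form of phosphofructokinase and the committed step of the pathway, had 13596, 20786 and 21940 normalised counts in cKO and 7437, 18770 and 12350 in control libraries. Control library 2 exceeded cKO library 1, so the groups overlapped. Its log2 fold change was 0.62 ± 0.34 (limma adjusted p = 0.484), and it was 0.27 without control library 1, the library with liver transcripts, and 0.94 without control library 2, uncalled in both. Exons of Gm26513 on the same strand cover 10.2% of Pfkm.

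Aldoa, fructose-bisphosphate aldolase A, was the most abundant of the enzymes per length in every library. It had 190953, 275480 and 254841 normalised counts in cKO and 108132, 162018 and 122995 in control libraries, without overlap. The cKO mean was 1.83 times the control mean, and on the fitted log2 scale the difference was 0.88 ± 0.27 (limma adjusted p = 0.188). A second row of the name Aldoa, ENSMUSG00000114515, lies just upstream of the main gene on chromosome 7 (126800790 to 126809108). It had 280.6, 171.6 and 215.5 normalised counts in cKO and 102.4, 133.0 and 44.5 in control libraries, again without overlap. Its log2 fold change was 1.35 ± 0.41 (limma adjusted p = 0.183), and 0.90 without control library 3, uncalled too.

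Tpi1, triosephosphate isomerase, interconverts the products of aldolase. It had 16242, 21325 and 19932 normalised counts in cKO and 7637, 18754 and 12246 in control libraries, and control library 2 lay inside the cKO range. Tpi1 did not pass, at a log2 fold change of 0.66 ± 0.31 (limma adjusted p = 0.393), which was 0.33 without control library 1.

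Gapdh, glyceraldehyde-3-phosphate dehydrogenase, is often used as a loading control because most cells make it. In these libraries it had the largest fold difference of the 10 genes. Its normalised counts were 28683, 35884 and 33483 in cKO libraries 1 to 3, against 4553, 685.7 and 4870 in control libraries 1 to 3. The groups were far apart, and control library 2 was the lowest by a wide margin. The cKO mean was 9.7 times the control mean. On the fitted log2 scale the difference was 3.72 ± 0.77 (95% interval 1.82 to 5.61), and the limma adjusted p of 0.114 missed the threshold. Without control library 2 this difference was 2.79 and passed (limma adjusted p = 0.00091).

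The Gapdh row is uncertain because the mouse genome holds many copies of its transcript. Of the 50-base windows of its 1273-base transcript, 90.4% are found letter for letter in a transcript of another gene, and 85.8% of its 100-base windows are. At 95% identity over at least 500 bases, 70 pseudogenes match it, of which 67 are in the table. Reads that fit several places can be counted at one, at all or at none of them, and the setting was not given in the sources used here. A coding stretch of 60 bases, positions 447 to 506 of the Gapdh transcript, shows how close the copies are. It is set beside the same stretch of the 2 pseudogenes with the highest counts, Gm7336 (chromosome 7, 51746647 to 51747878) and Gm5559 (chromosome 5, 95861714 to 95862715), from GENCODE transcripts on GRCm38, with the single position that varies among them in capitals.

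Gapdh: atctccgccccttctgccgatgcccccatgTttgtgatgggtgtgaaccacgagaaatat

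Gm7336: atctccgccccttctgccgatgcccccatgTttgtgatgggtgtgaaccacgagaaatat

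Gm5559: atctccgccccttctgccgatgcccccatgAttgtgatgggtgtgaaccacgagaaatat

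The 67 pseudogene rows together had 3776, 3516 and 4379 normalised counts in cKO libraries 1 to 3 and 2004, 2520 and 1907 in control libraries 1 to 3. Their sum also did not overlap between the groups, but its means differed by 1.81 times, against 9.7 times for Gapdh. In control library 2 the pseudogene rows held 367% of the count of Gapdh itself, while they held 9.80 to 13.2% in cKO libraries and 39.2 and 44.0% in control libraries 3 and 1. Gapdh and these rows added together stood at 32459, 39400 and 37862 in cKO and 6557, 3206 and 6777 in control libraries, a ratio of means of 6.63. Among the 22 pseudogene rows with a mean of at least 10, 21 had a higher mean in cKO, and the median ratio of means was 1.89. The part of the shared sequence in the Gapdh difference was not tested.

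**Figure D2:**
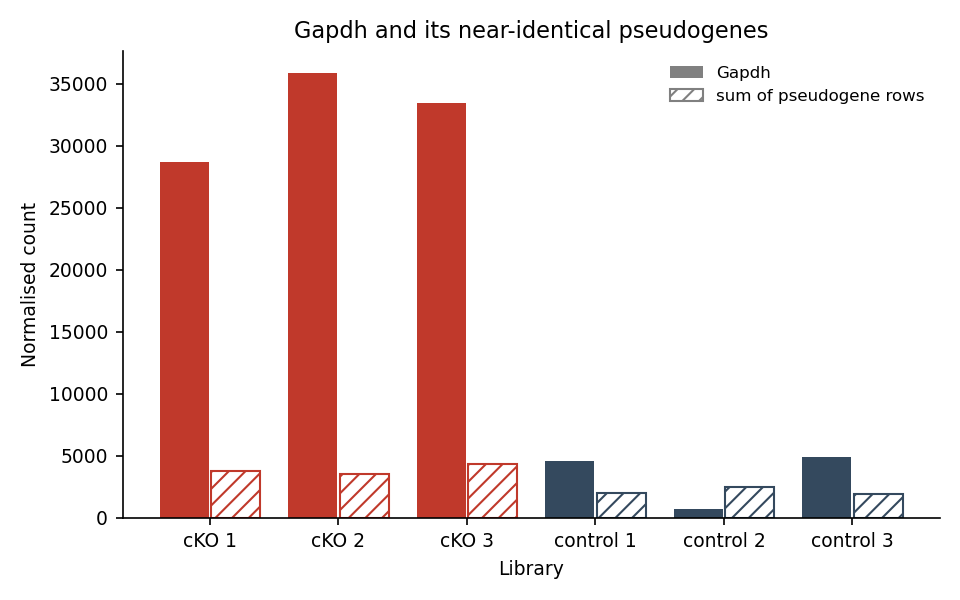
Normalised count of Gapdh (filled bars) and of the 67 pseudogene rows that match its transcript (hatched bars) in each library, cKO in red and control in dark. Gapdh was between 28683 and 35884 in cKO and between 685.7 and 4870 in control libraries, while the pseudogene sum was 3516 to 4379 in cKO and 1907 to 2520 in control libraries.

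Pgk1, phosphoglycerate kinase, makes the first ATP of the pathway. It had 4176, 3746 and 4363 normalised counts in cKO and 1589, 6052 and 3518 in control libraries. The cKO values lay within the control range. The highest control was 3.81 times the lowest, a ratio exceeded among the 10 genes by Gapdh alone. Its log2 fold change was 0.34 ± 0.44 (limma adjusted p = 0.80), and it was -0.18, uncalled, without control library 1 and 0.79 without control library 2. Of its 50-base windows, 68.0% are shared with another transcript, and the single matching pseudogene row in the table held at most 0.582% of its count.

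Pgam2, the muscle form of phosphoglycerate mutase, rose in the cKO uteri and was the only one of the 11 rows that limma called. It had 24663, 34100 and 30239 normalised counts in cKO libraries, against 12030, 14886 and 14750 in control libraries. The lowest cKO library was well above the highest control. The mean was 29668 ± 4745 in cKO and 13889 ± 1611 in control libraries (SD, n = 3 each), a ratio of 2.14. The log2 fold change was 1.09 ± 0.20 (95% interval 0.63 to 1.55) with a limma Benjamini-Hochberg adjusted p of 0.0432. This call was close to the threshold, and it was lost when any library other than control 1 was left out (limma adjusted p = 0.0524 to 0.244) and with edgeR (adjusted p = 0.0647). Pgam2 and Eno3 share no 50-base window with another gene and no exon base with a neighbour.

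Eno3, the muscle form of enolase, had 58020, 68622 and 71089 normalised counts in cKO and 28332, 49058 and 31799 in control libraries. All cKO libraries were above the controls. Eno3 did not pass, at a log2 fold change of 0.89 ± 0.25 (limma adjusted p = 0.16), but did without control library 2, at 1.13 (limma adjusted p = 0.0492).

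Pkm, pyruvate kinase, makes pyruvate and the last ATP of the chain. It had 30487, 38330 and 37316 normalised counts in cKO and 15813, 33679 and 23814 in control libraries, with control library 2 above cKO library 1. It did not pass, at a log2 fold change of 0.59 ± 0.28 (limma adjusted p = 0.40), which was 0.31 without control library 1. The splice forms of Pkm, one of which is the main form of muscle, are summed in this row, and exons of AC160637.1 on the same strand cover 15.3% of it.

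Ldha, lactate dehydrogenase A, was the most even enzyme among cKO libraries, at 27271, 28423 and 27935 normalised counts, and was at 11963, 28803 and 16683 in control libraries. Control library 2 was above every cKO library. Ldha did not pass either, at a log2 fold change of 0.64 ± 0.30 (limma adjusted p = 0.395). That value was 0.35 without control library 1 and 0.98 without control library 2, uncalled in both.

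Measured per length, the enzymes formed an upper group of 3 and a lower group of 7. In cKO libraries Aldoa averaged 5251 ± 916 RPKM, Eno3 2410 ± 212 and Pgam2 2247 ± 348 (SD, n = 3), and in control libraries the same genes averaged 2976 ± 863, 1386 ± 512 and 1092 ± 249 RPKM. RPKM is the read count scaled to the length of the gene model and to the total reads of the library. A gene model can be much longer than a transcript, as for Gapdh (4133 against 1273 bases) and Pkm (5001 against 2041). The order of the enzymes therefore depends on the length used. The levels of Eno3 and Pgam2 did not differ beyond their spread in either group. Ldha came next, with 536 ± 13.3 RPKM in cKO and 387 ± 198 in control libraries. Gapdh, Pkm, Tpi1 and Pfkm followed in cKO libraries at 503 to 357 RPKM, and Gpi1 and Pgk1 were lowest, at 126 and 116 RPKM. In control libraries Pkm, Tpi1 and Pfkm averaged 327 to 258 RPKM, and Pgk1 and Gpi1 112 and 101. Gapdh changed place most: it was the fifth of the 10 in cKO libraries, at 503 ± 52.9 RPKM, and the last in control libraries, at 52.6 ± 37.4.

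Each enzyme was next set against the muscle content of its own library. Aldoa was the steadiest, at 201, 197 and 183 normalised counts per 1000 counts of muscle content in cKO libraries, against 200, 192 and 203 in control libraries. Eno3 was at 61.1, 49.1 and 51.1 in cKO and 52.5, 58.0 and 52.4 in control libraries, and Pgam2 at 26.0, 24.4 and 21.7 in cKO and 22.3, 17.6 and 24.3 in control libraries. These 3 genes overlapped between the groups once content was divided out.

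Gapdh did not keep the proportion. It was at 30.2, 25.7 and 24.1 per 1000 content counts in cKO libraries, against 8.44, 0.811 and 8.02 in control libraries. Gpi1 was lower per content count in cKO, at 11.7, 10.3 and 9.18, against 15.8, 12.1 and 17.7 in control libraries. Gapdh was thus the single gene of the 10 with all cKO libraries above all control libraries on this scale, where 0.19% of all genes were, and Gpi1 the single one with all below, where 49.7% of all genes were.

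When the whole table was divided by muscle content and fitted again, limma called none of the 11 rows, and none had an unadjusted p under 0.05, which 56.4% of all genes had. It called 44.2% of all genes, 7207 as lower and 6 as higher, since dividing by a quantity that was higher in cKO moved the median log2 fold change of all genes to -0.90. The median of the 10 enzymes was -0.26. Gapdh had a relative log2 fold change of 2.80 ± 1.07 (limma adjusted p = 0.0934), and edgeR and DESeq2 called it on this scale (adjusted p = 0.0217 and 0.0315). Limma called it without control libraries 1, 2 and 3 in turn, at 3.38, 1.69 and 3.34. It also called Pgk1 without control library 1 (-0.95, limma adjusted p = 0.0498) and Gpi1 without control library 2 (-0.69, limma adjusted p = 0.0487), both as lower. Those fits called 17.8% and 61.7% of all genes as lower, so a lower call there is common. As higher, the fits without control libraries 1, 2 and 3 called 0.0527%, 0.113% and 0.0296% of all genes. Pgam2 stood at 0.18 ± 0.34 (95% interval -0.50 to 0.85), Eno3 at -0.02 ± 0.34 and Aldoa at -0.03 ± 0.35. The other 6 genes lay between -0.57 for Pgk1 and -0.25 for Tpi1. The 95% interval of Aldoa ran from -0.71 to 0.65, so the fit does not show that the proportion was kept exactly. Except for Gapdh, the standard errors of the 10 genes were all 0.344 to 0.347, whatever their own spread. They rest largely on the spread of all genes tested, towards which limma draws each gene. These intervals and missed calls therefore say little about the spread of a single enzyme. With log2 content as a covariate in place of the divisor, limma called 1 of all 16314 genes and none of the 11 rows. Content did not overlap between the groups, so that fit can hardly separate content from group, and its few calls decide nothing. Several values moved in that fit, which gave 5.69 for Gapdh, 0.61 for Pgam2, 0.01 for Gpi1, 0.09 for Aldoa and for Eno3, -0.80 for Pfkm and -0.91 for Pgk1, with limma adjusted p values of at least 0.621.

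**Figure D3:**
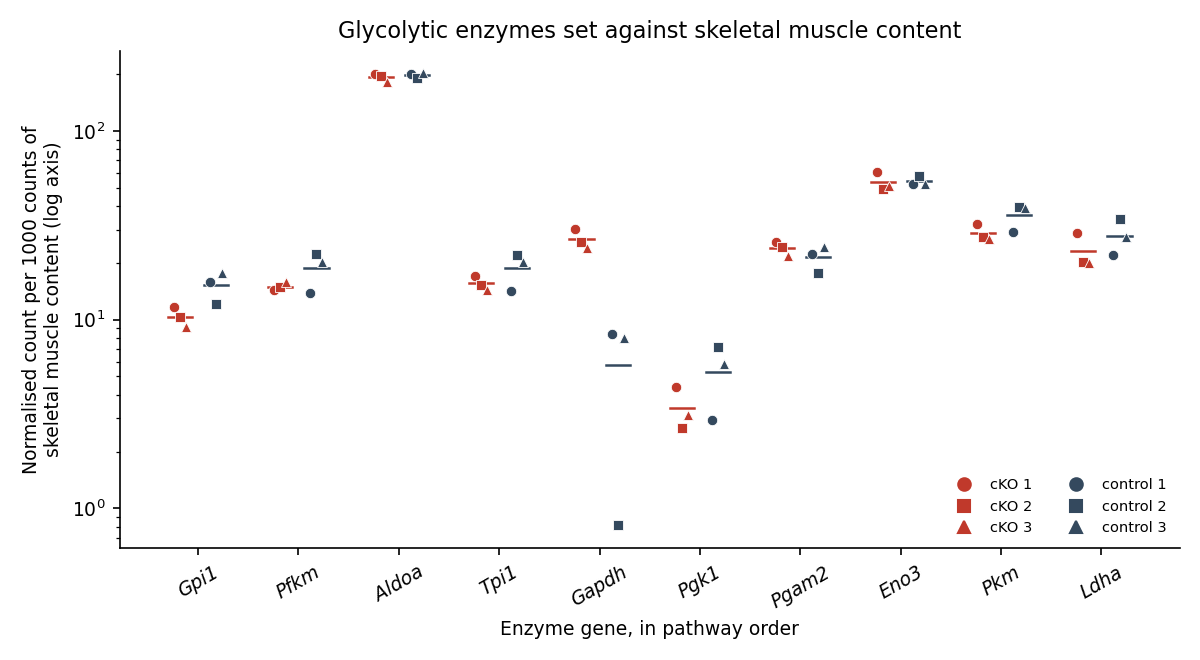
Normalised count of each enzyme per 1000 counts of skeletal muscle content (log axis), for cKO libraries (red, left) and control libraries (dark, right), with group means as lines. Aldoa lay between 183 and 203 in all 6 libraries, and Gapdh lay between 24.1 and 30.2 in cKO and between 0.811 and 8.44 in control libraries.

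**Figure D4:**
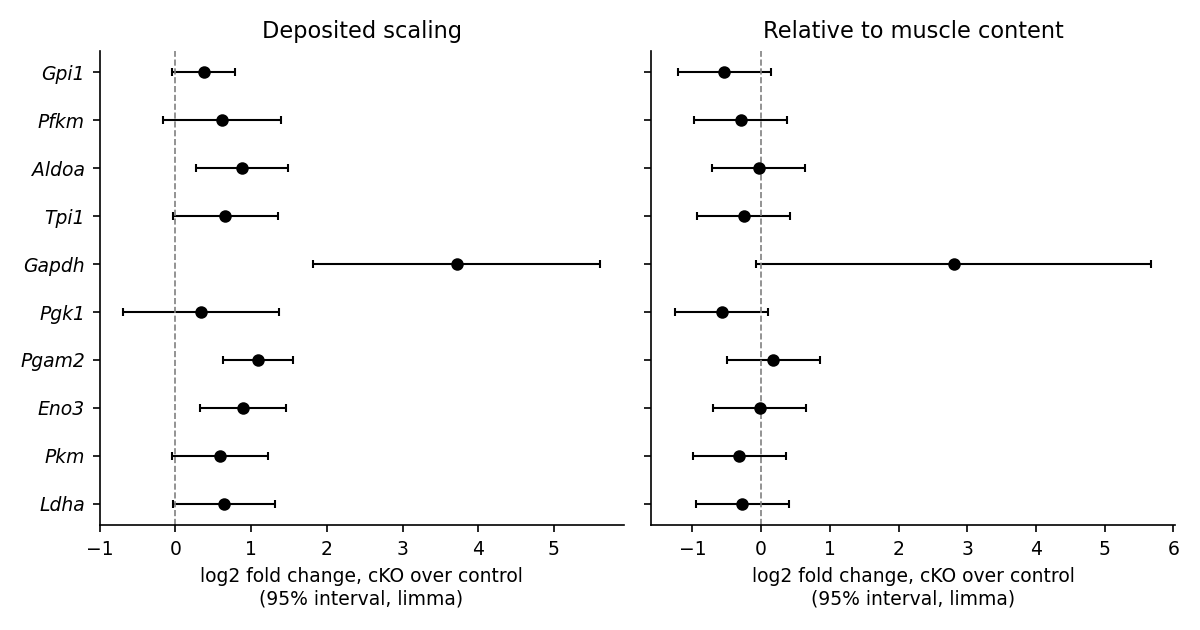
Fitted log2 fold change of each enzyme, cKO over control, with its 95% interval from limma, on the deposited scaling (left panel) and relative to skeletal muscle content (right panel). On the left all 10 points lie above 0, and on the right Gapdh is at 2.80 while the other 9 lie between -0.57 and 0.18.

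Within groups, most enzymes also ranked the libraries in the order of muscle content. In cKO, 7 of the 10 genes ranked the 3 libraries in the order of muscle content, against 20.2% of all genes tested. In the control group 8 of the 10 did, against 16.7%. Aldoa, Tpi1, Pgam2, Pkm and Ldha did so in both groups, 5 of 10 against 3.33% of all genes. The order within cKO rests on a small difference. Libraries 2 and 3 were close in content, at 8.95 and 8.63% of reads, and closer still in normalised counts. Single content genes ranked them both ways, with Acta1 higher in library 3 (401685 against 389041) and Tnnt3 higher in library 2 (170091 against 164270). Gapdh ranked the cKO libraries in the order of content but not the controls, where control library 2 had the most muscle content and the lowest Gapdh count.

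Isoform pairs at the same step were compared as ratios of RPKM values within a library. Pgam2 exceeded Pgam1, the widespread mutase, by 98.7, 151 and 84.0 times in cKO libraries, against 40.0, 25.9 and 37.96 times in control libraries. Eno3 exceeded Eno1 by 48.8, 49.6 and 53.8 times in cKO and by 23.7, 28.2 and 17.4 times in control libraries. The size of such a ratio depends on the gene-model lengths, which were 1739 bases for Eno3 and 5379 for Eno1. The difference between the groups does not depend on them. For both pairs the groups did not overlap, and the log2 ratio was higher in cKO by 1.67 and 1.16.

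Pfkm over Pfkl, the form of liver, differed by 1.19 on the log2 scale, and Pfkm over Pfkp, the form of platelets, by 1.19. Aldoa over Aldoc, the aldolase of brain, differed by 2.79, with Aldoc at 8.36 to 23.2 normalised counts in cKO and 31.7 to 107.6 in control libraries. These 5 log2 ratios did not overlap between the groups, and each had an exact two-sided permutation p of 0.1, the smallest possible here, which is 0.12 after Benjamini-Hochberg adjustment over the 6 ratios. Ldha over Ldhb, the form of heart, was at 4.64, 8.71 and 5.19 in cKO and 2.65, 5.35 and 2.74 in control libraries, which overlapped (difference of 0.81 on the log2 scale, exact permutation p = 0.3). Limma called none of the 6 partner genes, and their log2 fold changes were between -1.83 for Aldoc and -0.17 for Ldhb.

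**Figure D5:**
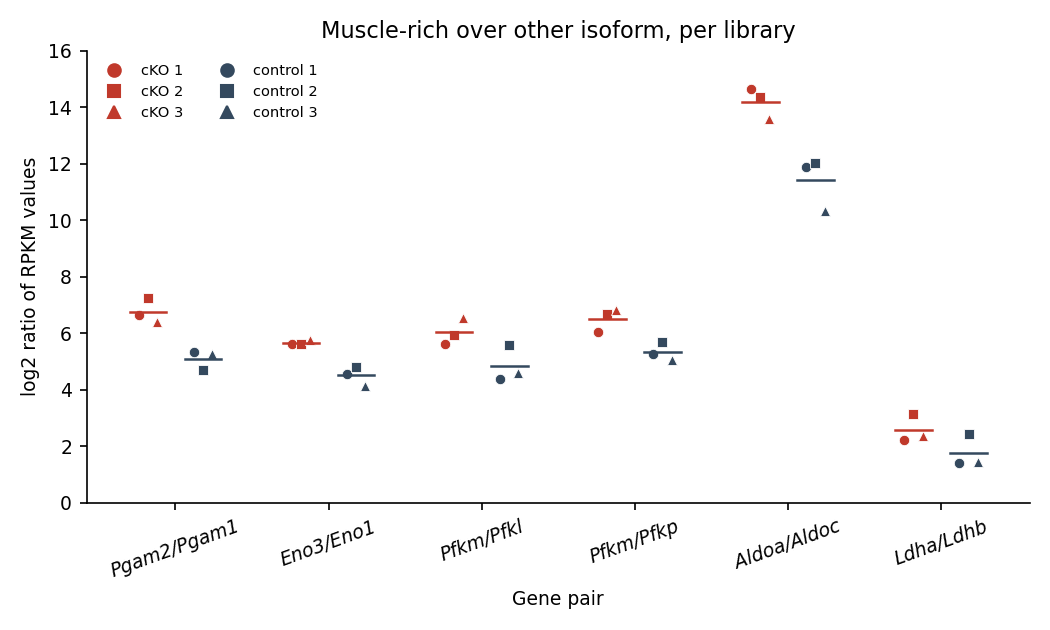
Ratio (log2 scale) of RPKM values for 6 pairs of isoform genes in each library, cKO in red on the left and control in dark on the right, with group means as lines. The groups did not overlap for 5 pairs, and for Ldha over Ldhb they did.

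Other genes of glycolysis, its side branches and its transporters had differences in both directions. Of 34 listed, 32 are in the table and 29 were tested. No gene was called by limma or edgeR and 1 was by DESeq2, where DESeq2 called 5.52% of all genes. An unadjusted limma p under 0.05 was found for 10 of the 29, against 13.7% of all genes. The means were higher in cKO for 14 and lower for 15, and the median log2 fold change was -0.17.

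Slc16a3, the transporter that exports lactate from fast fibres, had the smallest p. It had 3862, 2427 and 2587 normalised counts in cKO and 1264, 1666 and 1223 in control libraries, without overlap, and a log2 fold change of 1.08 ± 0.22 (limma adjusted p = 0.056). It is the gene DESeq2 called. Relative to muscle content its log2 fold change was 0.17 (limma adjusted p = 0.680). Gpd1, which makes glycerol 3-phosphate, was at 0.76 ± 0.25, Hk2, the hexokinase of muscle and fat, at 0.59 ± 0.21 and Pfkfb4, which sets the level of a phosphofructokinase activator, at 0.50 ± 0.18 on the log2 scale. Aldoc was at -1.83 ± 0.62 and Pfkl at -0.57 ± 0.20. The limma adjusted p of these 5 genes was 0.215 to 0.252.

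Of 15 regulators tested, limma called 1, Myod1, a transcription factor that commits cells to skeletal muscle. It called 1.16% of all genes in either direction. An unadjusted limma p under 0.05 was found for 6 of the 15, against 13.7% of all genes. Myod1 had 243.5, 254.5 and 264.1 normalised counts in cKO and 107.3, 104.3 and 75.6 in control libraries. Its log2 fold change was 1.42 ± 0.25 (limma adjusted p = 0.0341). Hif1a, a subunit of the hypoxia-inducible factor, was at 1152, 1304 and 1310 in cKO and 2037, 2263 and 1424 in control libraries (log2 fold change -0.58 ± 0.20, limma adjusted p = 0.228). Of 11 other genes known to respond to hypoxia, neither limma nor edgeR called any. The single gene with an unadjusted p under 0.05, which DESeq2 called, was Vegfa, a vascular growth factor, at 0.72 ± 0.17 on the log2 scale (limma adjusted p = 0.0883). Of 14 genes that control the entry of pyruvate into mitochondria, limma called 1, where it called 1.16% of all genes. An unadjusted limma p under 0.05 was found for 6 of the 14, against 13.7% of all genes. Pdk4, a kinase that switches off pyruvate dehydrogenase, had 4443, 3252 and 5019 normalised counts in cKO and 1805, 2042 and 2037 in control libraries, a log2 fold change of 1.09 ± 0.19 (limma adjusted p = 0.0349). Neither Myod1 nor Pdk4 was called by edgeR, and both were by DESeq2 (adjusted p = 5.98e-05 and 1.55e-05). Pdk3, another kinase of that family, was at -1.35 ± 0.44 on the log2 scale and was called lower by DESeq2 (adjusted p = 0.0366) but not by limma (adjusted p = 0.212). Relative to muscle content, limma called neither Myod1 (0.51, adjusted p = 0.314) nor Pdk4 (0.18, adjusted p = 0.658). On that scale it called 5 of the 15 regulators and 8 of the 14 pyruvate genes, all as lower, against 44.2% of all genes.

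The genes outside the 10 whose log2 values over the 6 libraries were most like the mean of the enzymes were Acot9, Smpx, Cacnb1, Pink1 and Hhatl. Their Pearson r was 0.999, 0.994, 0.994, 0.990 and 0.989, given as a description over 6 libraries that fall into 2 groups. The r of the enzymes themselves to their mean, in which each is included, ran from 0.581 for Pgk1 and 0.728 for Gapdh to 0.975 for Aldoa and 0.981 for Pgam2. Smpx, a small protein of striated muscle, was at 3290, 3788 and 3887 normalised counts in cKO and 1536, 2400 and 2267 in control libraries. It did not pass the test (log2 fold change 0.85, limma adjusted p = 0.0967).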

How the data were processed

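Uterine RNA was sequenced as 1 library per animal, 3 cKO and 3 control. Per the submitters' processing notes, HISAT2, SAMtools and featureCounts were used, without versions, and the build is named as GRCm39. The sources used here do not state how strand and multiply matching reads were counted. Of 25988 identifiers found in GENCODE vM21 (GRCm38), 25239 had identical coordinates, so the table's coordinates are read as GRCm38. The signal values deposited by the authors are gene counts divided by 1 size factor per library. In each library 100% of values were whole multiples of 1 step within 0.01 reads, which gave back whole reads, 14584450 to 16579573 per library. The deposited table also holds the authors' log2 fold changes, p-values and gene lengths, with no tool named.

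The design foresaw edgeR for raw counts. As these values had been scaled, limma 3.58.1 (R 4.3.3, trend and robust empirical Bayes) was the main test, on log2(value + 1), which understates the change of low genes. It was fitted on the 16314 genes kept by edgeR 4.0.16 (filterByExpr), with Benjamini-Hochberg adjustment and a threshold of 0.05. It was tested on simulated reads with known changes. The same fit followed division by skeletal muscle content. For that fit the simulation used a fixed divisor per group, so it does not cover the spread of content between libraries. Limma-voom, edgeR and DESeq2 1.42.0 on the recovered reads, other scalings, filters and pseudocounts, other muscle lists and leaving out each library were alternatives. P-values measure the spread between these animals, and limma draws the spread of each gene towards that of all genes tested. Limits for 0 counts use 3 reads and cover counting error only. Transcript matches came from blastn 2.17.0 on GENCODE vM21, and promoters from RefSeq, with windows for all 10 genes. Named genes are the 10 enzymes, Tcf21, the 6 isoform partners, called genes and the 6 smallest p-values among other glycolysis genes, and the 5 nearest in likeness. Myod1, Hif1a, Vegfa, Pdk3, Pdk4, Tnnc2 and the pseudogenes were named after their values were seen. The members and lists were chosen with earlier results of these data known. A result on 1 other gene is not reported here.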

Additional observations from a re-analysis of the deposited data

How the results depend on the processing

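Of the 11 enzyme rows, 1 was called, and this became 0 with total-read (CPM) scaling, limma-voom and edgeR, 4 with DESeq2, and 0 to 2 with 1 library left out. Pgam2 lost its call in 8 alternatives, with an adjusted p of 0.0507 to 0.244 in them. Over all genes 190 were called, against 101 with limma-voom, 116 with edgeR, 858 with DESeq2 and 43 to 464 with 1 library left out. Relative to muscle content no enzyme row was called, against 1 (Gapdh) with edgeR and with DESeq2 and 0 to 2 with 1 library left out, among them Gapdh without each control library in turn. Over all genes 7213 were called relative to content, against 1 with content as a covariate and 1294 to 10418 with 1 library left out. Of the other glycolysis genes none was called, against 1 without a filter on low values, 1 with DESeq2 and 0 to 3 with 1 library left out. The content difference of 3.52 percentage points was 0.495 for the calcium-handling list and 0.105 for the slow-fibre list, which was added after seeing the data. These lists hold less abundant genes, and the ratios of the cKO to the control mean were 1.80, 1.85 and 1.58. The summed enzyme share differed by 1.32 percentage points, and by 1.14 without Gapdh, also added then. The causes of these changes were not tested. For single genes and ratios, 379 of 399 alternatives kept the direction or the side of the threshold, 12 gained a call and 8 lost it. Those 379 include uncalled values that changed sign, such as Pgk1 from 0.34 to -0.18 without control library 1. They are therefore not a count of kept directions. The replicate numbers are not stated to pair animals, and same-numbered libraries had r of 0.008, -0.176 and 0.044 between their deviations. With a replicate block 1 enzyme row, 183 genes in all and 9574 relative to content were called.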
